A study of Rattus norvegicus with 9 samples.

Results

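The collagens that decorate, link or anchor fibrils rather than form them were followed in 3 types of cultured rat fibroblasts. The genes were the rows with the symbols *Col6a1*, *Col6a2*, *Col6a3*, *Col8a1*, *Col12a1*, *Col14a1*, *Col15a1*, *Col16a1* and *Col18a1*. Of these 9 symbols, 8 named exactly 1 row each among the 32883 genes of the tables. *Col6a3* named no row. Its Entrez gene ID in RefSeq, 367313, stood on a row with another symbol (ENSRNOG00000019648), annotated as a processed transcript. That row was matched after the tables were read and is described apart from the 8 genes, in no count of them.

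Fibrillar collagens form the rope-like fibres of connective tissue, and the collagens described here shape how those fibres are spaced, bundled and attached to cells. Type VI collagen assembles into beaded filaments around cells and is abundant in the endoneurium and in skin. Type VIII collagen, a short-chain collagen, forms open networks. Types XII and XIV are fibril-associated collagens with interrupted triple helices (FACITs), which sit on the surface of type I collagen fibrils, and type XVI is related to them. Types XV and XVIII are multiplexins, proteoglycan collagens of basement membrane zones, and endostatin is released from the end of type XVIII collagen.

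The cells came from wild-type Lewis rats aged 10 weeks, with no allele or treatment added in any type. Fb-Epn (epineurium) and Fb-Par (nerve parenchyma) were grown from sciatic nerves of 2 male rats, separated by hand, and Fb-Skn from abdominal skin of 1 other male rat, and all were used after 1 passage. Each type had 3 libraries, which with these numbers of rats cannot be 3 animals, so each SD and p-value describes the spread between these samples, which may be technical. Cell type, rat and body site cannot be told apart between the nerve and skin cells, and in bulk RNA fewer cells of a kind and less RNA per cell cannot be told apart either.

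Libraries held 10084584 to 12310506 counts, and the median was 10983249 for Fb-Epn, 10904060 for Fb-Par and 10124043 for Fb-Skn. The 8 collagen genes took 0.910% to 0.983% of the counts in Fb-Epn, 2.102% to 2.29% in Fb-Skn and 1.23% to 1.27% in Fb-Par. Levels are the deposited length-scaled transcript abundances (TPM), which sum to a fixed total in each library and can be compared between genes. Differences were tested on the counts with edgeR, and fold changes below are edgeR's, in which the median log2 fold change of all tested genes lay between -0.012 and 0. On the log2(TPM + 1) scale that median was 0.126 for Fb-Epn against Fb-Skn and 0.123 for Fb-Par against Fb-Skn. Small differences from Fb-Skn therefore depend on the scale, and the genes this touches are named below.

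The fibroblast label was met by 8 of 8 fibroblast markers, whose summed TPM was 35648 to 36294 in Fb-Epn, 34005 to 38227 in Fb-Skn and 29313 to 30032 in Fb-Par. Markers of other cells were present as well. The summed TPM of 8 Schwann cell markers was 193 to 203 in Fb-Epn, 10.5 to 13.2 in Fb-Skn and 268 to 275 in Fb-Par. All 8 had a mean above 1 TPM in Fb-Epn and in Fb-Par and 2 did in Fb-Skn, where *Sox10*, *Erbb3* and *Cdh19* had 0 counts. The sum of 6 pericyte and smooth muscle markers was highest in Fb-Par, at 247 to 263 against 36.3 to 42.6 in Fb-Epn and 125 to 128 in Fb-Skn. The sum of 6 macrophage markers was highest in Fb-Epn, at 219 to 235 against 46.9 to 50.9 in Fb-Par and 9.73 to 12.1 in Fb-Skn. Of each of these lists, the markers with a mean above 1 TPM numbered 6 of 6 for Fb-Epn, 5 for Fb-Par and 2 for Fb-Skn, where the pericyte genes *Rgs5* and *Kcnj8* had 0 counts. The 6 perineurial markers summed to 234 to 247 in Fb-Epn, 116 to 128 in Fb-Skn and 111 to 119 in Fb-Par. Of these, 4 had a mean above 1 TPM in each type, and *Lypd2* had 0 counts in all. *Slc2a1* alone averaged 144.7 TPM in Fb-Epn, 69.0 in Fb-Skn and 34.9 in Fb-Par. The order of this sum did not hold marker by marker. *Crabp2* averaged 25.7 TPM in Fb-Epn, 2.67 in Fb-Skn and 23.9 in Fb-Par. Between Fb-Par and Fb-Skn, 1 of the 4 tested perineurial markers was higher and 2 were lower in Fb-Par, where 23.2% and 22.4% of tested genes were. Endothelial markers (6 found) summed to 15.9 at most, keratinocyte markers to 4.74 at most and adipocyte markers to 0.950 at most.

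The type VI, VIII, XV and XVIII genes were highest in Fb-Par, and 4 of these 5 genes had an entry in the RefSeq promoter table of build GRCr8. The 250 bases before the start of each are shown, because these are the genes that stood together at the top of 1 type. Capitals mark GC boxes, GGGCGG on either strand, so that the reverse complement appears as CCGCCC.

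*Col6a1*, chr20:11905440-11905689, plus strand: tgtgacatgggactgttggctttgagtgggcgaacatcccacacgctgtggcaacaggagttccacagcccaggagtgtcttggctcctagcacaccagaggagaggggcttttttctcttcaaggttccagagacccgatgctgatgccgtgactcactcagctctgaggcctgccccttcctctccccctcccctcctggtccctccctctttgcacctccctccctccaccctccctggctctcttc
*Col8a1*, chr11:56246532-56246781, plus strand: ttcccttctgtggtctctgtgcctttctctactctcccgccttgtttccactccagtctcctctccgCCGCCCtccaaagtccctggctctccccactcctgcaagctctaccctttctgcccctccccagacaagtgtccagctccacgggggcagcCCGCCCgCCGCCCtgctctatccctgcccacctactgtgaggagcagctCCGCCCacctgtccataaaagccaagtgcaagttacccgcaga
*Col15a1*, chr5:66297296-66297545, plus strand: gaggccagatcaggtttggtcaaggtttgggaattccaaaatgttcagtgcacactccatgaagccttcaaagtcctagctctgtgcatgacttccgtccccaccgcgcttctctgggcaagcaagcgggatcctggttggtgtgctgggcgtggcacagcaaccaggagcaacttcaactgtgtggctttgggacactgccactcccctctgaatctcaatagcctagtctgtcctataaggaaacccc
*Col18a1*, chr20:11473395-11473644, plus strand: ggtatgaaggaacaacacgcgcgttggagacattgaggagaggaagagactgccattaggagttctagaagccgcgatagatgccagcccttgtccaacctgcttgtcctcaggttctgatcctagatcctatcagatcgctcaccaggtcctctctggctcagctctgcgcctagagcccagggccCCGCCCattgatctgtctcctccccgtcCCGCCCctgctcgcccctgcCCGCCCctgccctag

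The *Col8a1* window held 4 GC boxes and the *Col18a1* window 3, and the *Col6a1* and *Col15a1* windows held none. Such a box was present in 30.5% of all 33469 promoter windows of this length. *Col16a1*, which was highest in Fb-Epn, had 2 GC boxes in its own window. The *Col6a1* window held 1 AP-1 site (TGANTCA, found in 6.34% of windows), 99 bases before the start, and neither a TATA box (TATAAA, 12.9%) nor a CCAAT box (CCAAT, 34.0%) was found in any of these 4 windows on either strand. The GC content was 60% for *Col6a1*, 62% for *Col8a1*, 54% for *Col15a1* and 60.4% for *Col18a1*, against a median of 51.2% over all windows. The share of windows with a lower GC content was 74.7%, 79.0%, 58.2% and 75.6% in that order. High GC content was not particular to these genes, since the *Col16a1* window had 74.8%, more than 96.4% of windows. The *Col6a3* window had 58.4% and 0 GC boxes. These matches describe letters in a window, and windows for *Col6a2*, *Col12a1* and *Col14a1* were not analysed here.

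All 8 genes passed the expression filter. Between Fb-Epn and Fb-Par, 8 of 8 had an adjusted p under 0.01, 3 higher and 5 lower in Fb-Epn, where 38.8% of the 13273 tested genes passed. Between Fb-Epn and Fb-Skn, 7 of 8 passed, 2 higher and 5 lower in Fb-Epn, against 43.9% of tested genes. Between Fb-Par and Fb-Skn, 7 of 8 passed, 6 higher and 1 lower in Fb-Par, against 45.6%. DE genes, for which a change beyond 2 in either direction on the log2 scale was required as well, numbered 3 for Fb-Epn against Fb-Par (background 6.48%), 1 for Fb-Epn against Fb-Skn (8.44%) and 3 for Fb-Par against Fb-Skn (8.54%). The median log2 fold change of the 8 genes was -1.22, -0.61 and 0.59 in these comparisons in the same order, beside -0.00018, -0.0028 and -0.012 over all tested genes. The libraries of all 8 genes did not overlap in TPM in any comparison, which held for 57.3% of tested genes between Fb-Epn and Fb-Par, 61.4% between Fb-Epn and Fb-Skn and 61.7% between Fb-Par and Fb-Skn. The comparisons share libraries, so their counts are not independent of each other.

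**Figure D1:**
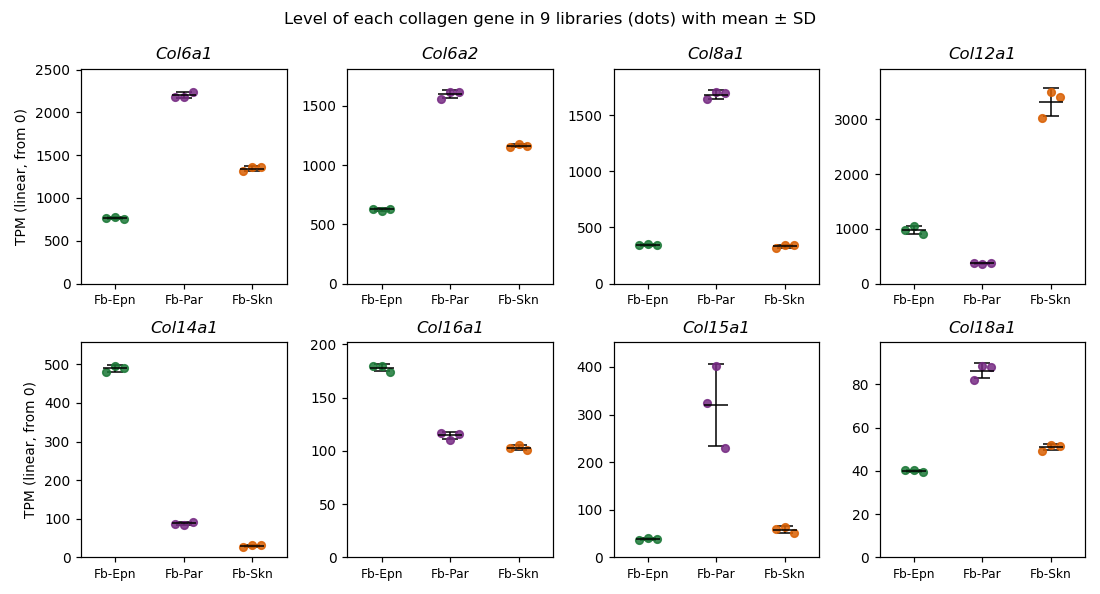
TPM of the 8 collagen genes, each panel on its own linear axis from 0, with dots for the 3 libraries of each fibroblast type and bars for the mean ± SD. *Col6a1*, *Col6a2*, *Col8a1*, *Col15a1* and *Col18a1* were highest in Fb-Par, *Col12a1* in Fb-Skn, and *Col14a1* and *Col16a1* in Fb-Epn, and relative to its mean the widest spread was that of *Col15a1* in Fb-Par, from 230.4 to 403 (coefficient of variation 27.1%).

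The beaded filament genes *Col6a1* and *Col6a2*, which encode chains of the same type VI collagen molecule, were highest in Fb-Par and lowest in Fb-Epn. *Col6a1* (ENSRNOG00000001249, rn6 chromosome 20 from 12658065 to 12675561, plus strand) had 770.0, 783 and 759 TPM in the 3 Fb-Epn libraries. It had 2178, 2184 and 2242 TPM in Fb-Par and 1315, 1359 and 1357 TPM in Fb-Skn. The 3 groups did not overlap, and *Col6a1* ranked 40th to 41st of all genes by TPM in Fb-Par, 103rd to 109th in Fb-Skn and 173rd to 183rd in Fb-Epn. Fb-Par had 2.84-fold more than Fb-Epn (95% interval 2.74 to 2.94, adjusted p = 6.9e-16, edgeR) and 1.48-fold more than Fb-Skn (1.43 to 1.53, adjusted p = 2.6e-11). Fb-Epn was 1.92-fold below Fb-Skn (1.86 to 1.99, adjusted p = 9.7e-14).

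*Col6a2* (ENSRNOG00000001254, rn6 chromosome 20 from 12773427 to 12801180, plus strand) lies 97.87 kb beyond the end of *Col6a1*. It had 631, 615 and 630.0 TPM in Fb-Epn, 1561, 1621 and 1615 TPM in Fb-Par, and 1154, 1176 and 1159 TPM in Fb-Skn. The order of the types was the same as for *Col6a1*, again with no overlap. The log2 fold change was -1.34 ± 0.024 (SE) for Fb-Epn against Fb-Par, -1.04 ± 0.024 for Fb-Epn against Fb-Skn and 0.31 ± 0.024 for Fb-Par against Fb-Skn, with adjusted p-values of 3.8e-15, 6.2e-14 and 4.5e-08 (edgeR). The ratio of *Col6a2* to *Col6a1* in TPM stayed within a narrow band, at 0.812 ± 0.0227 (SD, n = 3) in Fb-Epn, 0.866 ± 0.0118 in Fb-Skn and 0.726 ± 0.0139 in Fb-Par. Its ranges did not overlap between types, from 0.716 to 0.742 in Fb-Par, 0.786 to 0.830 in Fb-Epn and 0.854 to 0.878 in Fb-Skn.

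The row that carries the Entrez gene ID of *Col6a3*, a large chain of type VI collagen, lies on rn6 chromosome 9 from 97926787 to 98004546, minus strand. Its level was 110.5 ± 6.44 TPM (SD, n = 3) in Fb-Epn, 146.5 ± 5.18 in Fb-Skn and 181.7 ± 2.26 in Fb-Par. The types therefore stood in the same order as for the other type VI chains, with adjusted p-values of 9.5e-10 for Fb-Epn against Fb-Par, 1.7e-08 for Fb-Epn against Fb-Skn and 0.0022 for Fb-Par against Fb-Skn (edgeR). Without Fb-Skn replicate 3 the last of these was 0.011 and missed the threshold. The ratio of this row to *Col6a1* was 0.143 ± 0.00658 in Fb-Epn, 0.109 ± 0.0024 in Fb-Skn and 0.0826 ± 0.00049 in Fb-Par. Whether this row counts all of the *Col6a3* transcript is not given in the sources used here. The further type VI chain genes *Col6a4*, *Col6a5* and *Col6a6* had at most 9 counts in any library and were not tested.

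*Col8a1* (ENSRNOG00000039668, rn6 chromosome 11 from 44877859 to 45007891, plus strand) set Fb-Par apart from both other types. Its level was 340.2, 355 and 343 TPM in Fb-Epn, 1640.05, 1709.9 and 1699 TPM in Fb-Par, and 317, 339 and 339.9 TPM in Fb-Skn. Every Fb-Par library was far above the other 6, and it was a DE gene in both comparisons with Fb-Par. Fb-Par was 4.83-fold above Fb-Epn (4.62 to 5.04, adjusted p = 1.1e-16, edgeR) and 4.57-fold above Fb-Skn (4.37 to 4.77, adjusted p = 1.1e-16). Between Fb-Epn and Fb-Skn the threshold was not passed, with a log2 fold change of -0.08 (95% interval -0.14 to -0.02, adjusted p = 0.027). In TPM the Fb-Epn libraries stood just above those of Fb-Skn, and after TMM scaling just below, at 329 to 345 against 346 to 359. The paralogue *Col8a2* had another order, with 165.4 ± 4.29 TPM in Fb-Epn, 519 ± 17.5 in Fb-Skn and 305 ± 6.58 in Fb-Par.

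The FACIT genes *Col12a1* and *Col14a1* differed widely between types, each in its own order. *Col12a1* (ENSRNOG00000058470, rn6 chromosome 8 from 87040799 to 87158368, minus strand) had 987, 1044 and 903 TPM in Fb-Epn, 371, 353 and 383 TPM in Fb-Par, and 3025, 3505.5 and 3405 TPM in Fb-Skn. The groups did not overlap, and in Fb-Skn it ranked 23rd to 28th of all genes. Fb-Skn had 9.95-fold more than Fb-Par (9.17 to 10.8, adjusted p = 1.1e-15, edgeR), a DE gene, and 3.73-fold more than Fb-Epn (3.45 to 4.02, adjusted p = 3e-13), just short of the limit for DE genes. Fb-Epn had 2.67-fold more than Fb-Par (2.47 to 2.88, adjusted p = 8.9e-12).

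*Col14a1* (ENSRNOG00000026415, rn6 chromosome 7 from 95074236 to 95273298, plus strand) was highest in Fb-Epn. It had 480.3, 497 and 491 TPM in Fb-Epn, 87.2, 84.3 and 92.8 TPM in Fb-Par, and 27.9, 31.9 and 31.1 TPM in Fb-Skn, without overlap. It was the 1 gene of the 8 that was a DE gene between Fb-Epn and Fb-Skn, at 14.7-fold (13.7 to 15.7, adjusted p = 4.8e-17, edgeR). Fb-Epn was 5.59-fold above Fb-Par (5.26 to 5.95, adjusted p = 1.7e-15), also a DE gene, and Fb-Par was 2.62-fold above Fb-Skn (2.45 to 2.81, adjusted p = 2.1e-12). The macrophage and perineurial marker sums were also highest in Fb-Epn. The macrophage sum was lowest in Fb-Skn, as *Col14a1* was. The perineurial sum was not, at 116 to 128 TPM in Fb-Skn and 111 to 119 in Fb-Par. The part of these cells in the differences was not tested.

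Within a library the balance of the pair was far from constant. *Col12a1* exceeded *Col14a1* by a ratio of 2.00 ± 0.140 (SD, n = 3) in Fb-Epn, 109.3 ± 0.809 in Fb-Skn and 4.19 ± 0.0626 in Fb-Par, with no overlap between the types. Set against *Col6a1*, *Col12a1* had a ratio of 1.27 ± 0.0735 in Fb-Epn, 2.46 ± 0.145 in Fb-Skn and 0.168 ± 0.00516 in Fb-Par. Such ratios are formed within 1 library and do not depend on how libraries were scaled.

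*Col16a1* (ENSRNOG00000031475, rn6 chromosome 5 from 148257642 to 148311645, plus strand), the FACIT-like gene, had the smallest fold range between types among the 8 genes. It had 180.008, 179.9 and 174 TPM in Fb-Epn, 117, 110.6 and 116 TPM in Fb-Par, and 102, 106 and 101 TPM in Fb-Skn. Fb-Epn stood above both other types, by 1.57-fold over Fb-Par (1.49 to 1.65, adjusted p = 8e-10, edgeR) and by 1.57-fold over Fb-Skn (1.49 to 1.65, adjusted p = 7.4e-10). The order of Fb-Par and Fb-Skn was not settled. Their log2 fold change was 0.0027 (95% interval -0.07 to 0.08, adjusted p = 0.96), and the libraries did not overlap in TPM but did after TMM scaling, at 106.7 to 112.4 against 106.5 to 111.7. TMM-scaled values of the other 7 genes did not overlap between Fb-Par and Fb-Skn, and 62.0% of all tested genes had no overlap there. Between Fb-Epn and Fb-Par (background 57.2%) and between Fb-Epn and Fb-Skn (61.1%), none of the 8 genes overlapped after that scaling.

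The multiplexin genes were both highest in Fb-Par. *Col15a1* (ENSRNOG00000060381, rn6 chromosome 5 from 62840360 to 62950240, plus strand) had 36.8, 41.3 and 38.3 TPM in Fb-Epn, 325, 403 and 230.4 TPM in Fb-Par, and 59.3, 65.0 and 51.4 TPM in Fb-Skn. The groups did not overlap, but the Fb-Par libraries differed among themselves by more than those of any other gene here, with a coefficient of variation of 27.1% against at most 4.88% for the other 7 genes in Fb-Par. Its biological coefficient of variation in the edgeR fit was 12.6%, above that of 67.9% of tested genes, and that of the other 7 genes was 2.75% to 5.17%. In the same 3 Fb-Par libraries the pericyte and smooth muscle sum was 247, 263 and 252 TPM, and the Schwann cell sum was 268, 275 and 273 TPM.

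Fb-Par had 8.17-fold more *Col15a1* than Fb-Epn (6.46 to 10.3, adjusted p = 6.4e-10, edgeR) and 4.91-fold more than Fb-Skn (3.92 to 6.16, adjusted p = 7.9e-09), both DE genes. Leaving out single libraries gave a log2 fold change of -3.22 to -2.83 for Fb-Epn against Fb-Par and 2.097 to 2.49 for Fb-Par against Fb-Skn, so both calls stood without any 1 library. Fb-Epn was 1.66-fold below Fb-Skn (1.31 to 2.11, adjusted p = 0.0013), a call that was lost on TPM with limma (adjusted p = 0.017).

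*Col18a1* (ENSRNOG00000001229, rn6 chromosome 20 from 12225202 to 12332858, plus strand) ends 325.2 kb before *Col6a1* starts. It was more even, at 40.2, 40.4 and 39.6 TPM in Fb-Epn, 82.2, 88.7 and 88.0 TPM in Fb-Par, and 49.3, 51.8 and 51.5 TPM in Fb-Skn, without overlap. The log2 fold change was -1.10 ± 0.042 (SE) for Fb-Epn against Fb-Par, -0.48 ± 0.043 for Fb-Epn against Fb-Skn and 0.61 ± 0.041 for Fb-Par against Fb-Skn, with adjusted p-values of 1.8e-11, 2.3e-07 and 1e-08 (edgeR). The ratio of *Col15a1* to *Col18a1* was 0.969 ± 0.0547 in Fb-Epn, 1.15 ± 0.135 in Fb-Skn and 3.71 ± 0.988 in Fb-Par, and the ranges of Fb-Epn and Fb-Skn overlapped.

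The Schwann cell and the pericyte and smooth muscle marker sums were, like these 5 genes, highest in Fb-Par, and their part in the differences was not tested. The Schwann sum was lowest in Fb-Skn. The pericyte and smooth muscle sum was lowest in Fb-Epn, where *Myh11* averaged 24.6 TPM, against 124.8 in Fb-Skn and 163.6 in Fb-Par. That order did not hold marker by marker. Between Fb-Epn and Fb-Skn, 5 of these 6 markers were higher in Fb-Epn and 1 was lower, where 23.0% and 20.9% of tested genes were. *Col6a1*, *Col6a2*, *Col15a1* and *Col18a1* were lowest in Fb-Epn, in every library, and for *Col8a1* the order of Fb-Epn and Fb-Skn depended on the scale. The orders of the collagen genes were not tested against those of the markers.

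**Figure D2:**
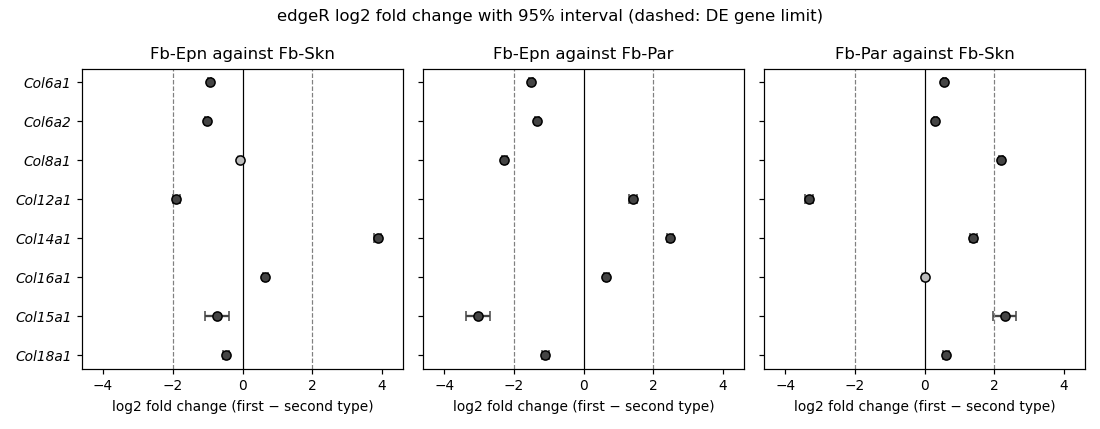
Fold change of the 8 genes in each comparison on the log2 scale, first type minus second, as edgeR estimates with 95% intervals, dark where the adjusted p was under 0.01 and grey where it was not. Dashed lines stand at -2 and 2, the limits for DE genes, which *Col14a1*, *Col8a1*, *Col15a1* and *Col12a1* crossed in at least 1 comparison, and the grey points are *Col8a1* for Fb-Epn against Fb-Skn and *Col16a1* for Fb-Par against Fb-Skn.

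**Figure D3:**
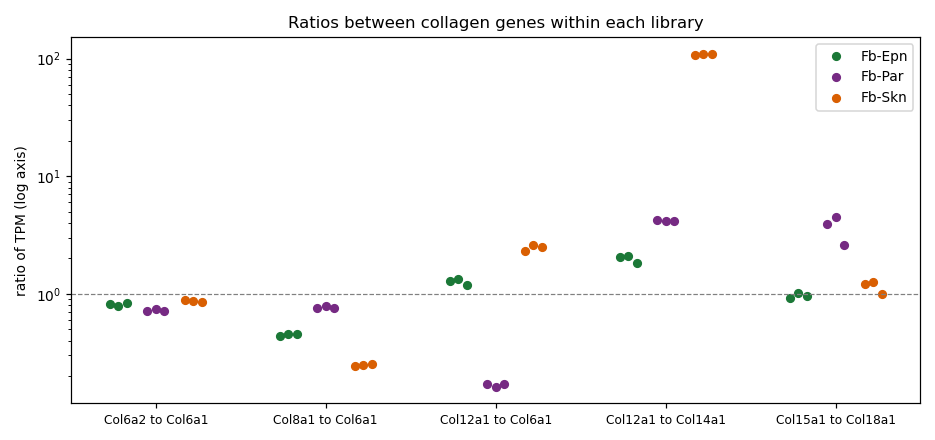
Ratios of TPM between pairs of collagen genes within each library, on a log axis, with 1 dot per library coloured by type and a dashed line at a ratio of 1. *Col12a1* to *Col14a1* spread from 1.84 in an Fb-Epn library to 109.9 in an Fb-Skn library, whereas *Col6a2* to *Col6a1* lay between 0.716 and 0.878 in all 9 libraries.

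Put together, the 8 genes gave each type a repertoire of its own. Their summed TPM was 3466 ± 88.6 (SD, n = 3) in Fb-Epn, 6393 ± 305 in Fb-Skn and 6461 ± 96.5 in Fb-Par, and the last 2 overlapped. In Fb-Epn the FACIT and FACIT-like genes made up 47.5% of this sum, the type VI genes 40.3%, *Col8a1* 9.98% and the multiplexins 2.27%. In Fb-Par the type VI genes made up 58.8%, *Col8a1* 26.0%, the FACIT genes 8.85% and the multiplexins 6.28%. In Fb-Skn the FACIT genes made up 53.8%, nearly all of it *Col12a1* at 51.8%, the type VI genes 39.3%, *Col8a1* 5.20% and the multiplexins 1.71%. The FACIT share ranged from 46.4% to 48.4% in Fb-Epn, 52.2% to 54.9% in Fb-Skn and 8.36% to 9.15% in Fb-Par, so it did not overlap between types.

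**Figure D4:**
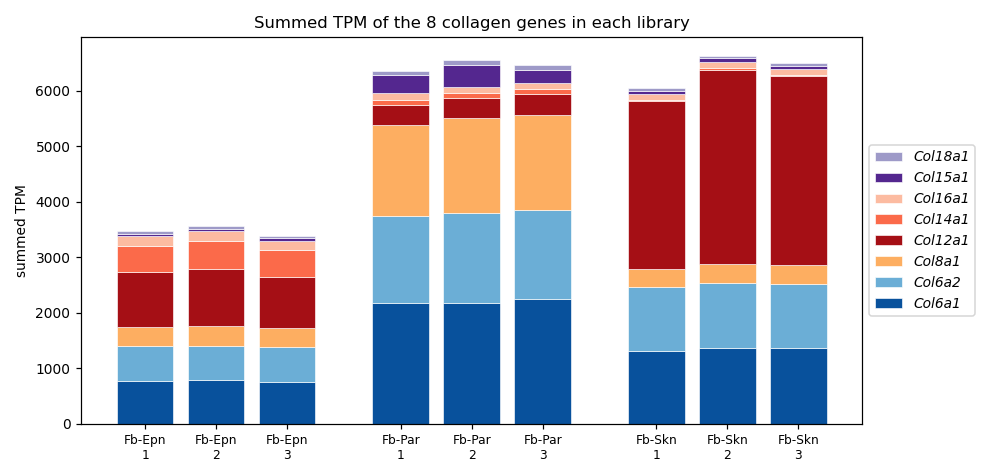
Summed TPM of the 8 collagen genes in each of the 9 libraries as stacked bars from 0, blue for type VI, orange for *Col8a1*, red for the FACIT genes and violet for the multiplexins. *Col12a1* filled most of the red part in Fb-Skn, at 51.8% of the sum, and type VI with *Col8a1* filled most of each Fb-Par bar.

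The order of the genes by TPM also differed between types. In Fb-Epn it ran *Col12a1*, *Col6a1*, *Col6a2*, *Col14a1*, *Col8a1*, *Col16a1*, *Col18a1* and *Col15a1*, and only the last 2 overlapped. In Fb-Par it ran *Col6a1*, *Col8a1*, *Col6a2*, *Col12a1*, *Col15a1*, *Col16a1*, *Col14a1* and *Col18a1*, where *Col12a1* overlapped with *Col15a1* and *Col14a1* with *Col18a1*. In Fb-Skn it ran *Col12a1*, *Col6a1*, *Col6a2*, *Col8a1*, *Col16a1*, *Col15a1*, *Col18a1* and *Col14a1*, where *Col15a1* and *Col18a1* overlapped. *Col14a1* thus stood last in Fb-Skn and above *Col8a1* in Fb-Epn.

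For each gene the non-member with the most similar pattern was sought, by the root mean square difference of centred log2(TPM + 1) over the 9 libraries, among 8832 tested genes with a mean of at least 10 TPM. *Col6a1* was nearest to *Pdgfrb*, a receptor of platelet-derived growth factor, at 0.051, and *Col6a2* to *Plekhg2* at 0.051, and the 2 chains differed from each other by 0.108. *Col8a1* was nearest to *Tll1*, a metalloproteinase, at 0.053, with 22.3 ± 1.37 TPM in Fb-Epn, 20.2 ± 0.504 in Fb-Skn and 104.9 ± 2.06 in Fb-Par. *Col12a1* was nearest to *Ltbp1*, which binds latent transforming growth factor beta, at 0.096. *Col14a1* was nearest to *Lyz2*, the lysozyme gene known from macrophages, at 0.046, with 957 ± 24.6 TPM in Fb-Epn, 60.6 ± 2.27 in Fb-Skn and 178 ± 6.13 in Fb-Par. *Col16a1* was nearest to *Ccdc80*, a matrix protein gene, at 0.027, and *Col18a1* to the tetraspanin gene *Cd81* at 0.045. *Col15a1* had no gene as close, its nearest being the calcium pump gene *Atp2b4* at 0.232. With 3 types, a likeness over these libraries is mainly a likeness of 3 levels.

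Of 15 further collagens of the same or neighbouring classes, 7 were tested. Between Fb-Epn and Fb-Par all 7 were lower in Fb-Epn, where 18.6% of tested genes were lower, with a median log2 fold change of -1.87. Between Fb-Par and Fb-Skn 5 were higher and 1 lower in Fb-Par, where 23.2% and 22.4% of tested genes were, with a median of 2.57. Between Fb-Epn and Fb-Skn 2 were higher and 2 lower in Fb-Epn, where 23.0% and 20.9% were, with a median of 0.016. *Col7a1*, which forms anchoring fibrils, had 6.05 ± 0.266 TPM in Fb-Epn, 3.68 ± 0.446 in Fb-Skn and 24.5 ± 0.857 in Fb-Par, and was a DE gene in both comparisons with Fb-Par. The FACIT gene *Col20a1* had 6.17 ± 0.330 TPM in Fb-Epn, 2.95 ± 0.402 in Fb-Skn and 22.7 ± 0.369 in Fb-Par, a DE gene for Fb-Par against Fb-Skn. *Col9a1*, a FACIT gene known from cartilage, had 24.5 ± 1.11 TPM in Fb-Par and at most 1 count in any library of the other types. *Col22a1* had 0.595 ± 0.0916 TPM in Fb-Par and at most 2 counts in any other library. All 4 were highest in Fb-Par, unlike *Col12a1* and *Col14a1*.

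The fibrillar collagens, on whose fibrils the FACITs sit, were measured for comparison, 10 of 11 tested. They were 6 higher and 2 lower in Fb-Epn against Fb-Par, 3 higher and 2 lower in Fb-Epn against Fb-Skn, and 3 higher and 6 lower in Fb-Par against Fb-Skn, with medians of 0.24, -0.23 and -0.43 on the log2 scale. With limma on log2(TPM + 1) the first of these counts was 3 higher and 2 lower, and the median of all tested genes there was -0.0095. In edgeR, 20.2% of all tested genes were higher and 18.6% lower in the first comparison. The edgeR shares were 23.0% and 20.9% in the second, and 23.2% and 22.4% in the third. *Col11a1*, which helps to set fibril width, had 105.9 ± 3.89 TPM in Fb-Epn, 31.7 ± 1.26 in Fb-Skn and 465 ± 7.80 in Fb-Par, and *Col24a1* was under 1 TPM in every type. Both were DE genes in the comparisons with Fb-Par, in opposite directions. *Col11a1* was highest in Fb-Par, and *Col24a1* was lowest there, at 0.098 TPM and at most 4 counts in a library.

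The partners that tie microfibrils and FACITs to the matrix had 13 of 15 genes tested. In Fb-Epn against Fb-Skn 10 were higher and 1 lower, where 23.0% and 20.9% of tested genes were, with a median log2 fold change of 0.90. In Fb-Par against Fb-Skn 10 were higher and 2 lower, where 23.2% and 22.4% of tested genes were, with a median of 1.13. In Fb-Epn against Fb-Par 4 were higher and 7 lower, where 20.2% and 18.6% of tested genes were, with a median of -0.22. *Tnc*, the gene of the matrix glycoprotein tenascin-C, had 1469 ± 19.4 TPM in Fb-Epn, 1014 ± 36.5 in Fb-Skn and 260.3 ± 9.91 in Fb-Par, and like *Col12a1* was lowest in Fb-Par. *Tgfbi*, whose protein binds collagen, had 184 ± 5.96 TPM in Fb-Epn, 23.2 ± 2.57 in Fb-Skn and 129.7 ± 1.88 in Fb-Par. *Fmod*, the gene of the fibril-binding proteoglycan fibromodulin, had 8.75 ± 1.08 TPM in Fb-Epn, 4.14 ± 0.556 in Fb-Skn and 0.682 ± 0.363 in Fb-Par, and *Matn3* was under 3 TPM in each.

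Among 12 receptors of collagens, 9 were higher and 3 lower in Fb-Par against Fb-Skn, with a median log2 fold change of 0.57. Against Fb-Par, Fb-Epn had 3 higher and 6 lower (median -0.22), and against Fb-Skn 6 higher and 4 lower (median 0.12). Of all tested genes, 23.2% were higher and 22.4% lower in the first of these comparisons. The shares were 20.2% and 18.6% in the second, and 23.0% and 20.9% in the third. *Cspg4*, which encodes the proteoglycan NG2, a receptor of type VI collagen and a pericyte gene as well, had 8.48 ± 1.37 TPM in Fb-Epn, 26.4 ± 1.34 in Fb-Skn and 73.1 ± 1.88 in Fb-Par, the same order as the type VI genes. *Itga1*, the gene of an integrin collagen receptor, had 104.1 ± 7.89 TPM in Fb-Epn, 36.9 ± 4.27 in Fb-Skn and 292 ± 15.005 in Fb-Par. The integrin genes *Itga10* (at most 8.41 TPM on average) and *Itga2* (at most 3.35) were DE genes at low levels, with *Itga10* highest in Fb-Par and *Itga2* in Fb-Epn.

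The proteases that process these collagens were divided, with 4 higher and 6 lower of 13 in Fb-Epn against Fb-Par, 6 and 5 in Fb-Epn against Fb-Skn, and 6 and 6 in Fb-Par against Fb-Skn. Their medians were -0.22, 0.26 and 0.02 on the log2 scale. Of all tested genes, 20.2% were higher and 18.6% lower in the first comparison. The shares were 23.0% and 20.9% in the second, and 23.2% and 22.4% in the third. Besides *Tll1*, the DE genes were *Ctss* (cathepsin S), with 47.7 ± 3.42 TPM in Fb-Epn, 4.36 ± 0.660 in Fb-Skn and 11.7 ± 2.82 in Fb-Par, *Mmp9*, with 7.24 ± 0.663, 5.07 ± 1.05 and 0.788 ± 0.242 TPM in the same order, and *Adamts3*, under 1 TPM in each type.

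Of the 13 folding enzymes and chaperones of the endoplasmic reticulum, 10 were higher and 0 lower in Fb-Epn against Fb-Par, where 20.2% and 18.6% of tested genes were, with a median log2 fold change of 0.32. In Fb-Par against Fb-Skn 1 was higher and 11 were lower, where 23.2% and 22.4% of tested genes were, with a median of -0.48. In Fb-Epn against Fb-Skn 3 were higher and 6 lower, where 23.0% and 20.9% were, with a median of -0.33. With limma on log2(TPM + 1) these counts were 9 higher and 1 lower, 1 higher and 8 lower, and 5 higher and 6 lower, in the same order. The shares above are edgeR's, and the background moved as well. For Fb-Epn against Fb-Skn, limma called 3845 of the 13273 tested genes higher and 1731 lower, and edgeR 3052 and 2778. *Plod2*, a lysyl hydroxylase of collagen, had 722 ± 6.24 TPM in Fb-Epn, 161 ± 5.07 in Fb-Skn and 345 ± 14.1 in Fb-Par, and was the DE gene of this list, for Fb-Epn against Fb-Skn.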

How the data were processed

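The data are 9 RNA libraries of fibroblasts cultured from rats. Per the submitters' processing notes and the methods, reads of 150 bp were checked with FastQC 0.11.7, trimmed with Trimmomatic 0.38, aligned to rn6 with HISAT2 2.1.0 and counted with featureCounts 1.6.3; the annotation release and the strand setting are not given in the sources used here. The authors deposited raw counts per gene and TPM for the same genes, and each TPM equalled the count over a fixed gene length, rescaled to a common sum (largest relative deviation 6.3e-07). An FPKM table was not used.

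Counts were tested in R 4.3.3 with edgeR 4.0.16 (TMM factors of 0.955 to 1.03, default filter, quasi-likelihood F test, all 9 libraries in 1 model, Benjamini-Hochberg adjustment over 13273 tested genes, threshold 0.01). A DE gene changed by more than 2 on the log2 scale as well. Limma 3.58.1 and DESeq2 1.42.0 served as alternatives. An exact two-sided permutation test of 3 against 3 libraries cannot give a p under 0.1 and was not used. Libraries of a type differed beyond sampling noise (chi-square per degree of freedom 3.21 to 5.22), so none was a copy. No other gene of the table overlapped any of the collagen genes. Same-numbered libraries were not paired.

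The collagen genes and the 6 gene lists were chosen with earlier results of these data known. Named genes are the collagen genes, the DE genes of each list, *Col8a2* and the type VI chain genes (named after their values were seen) and the nearest gene by pattern. Single cell type markers, such as *Slc2a1*, *Crabp2* and *Myh11*, were also named with their values known. *Col21a1*, *Tnxb*, *Pcolce2* and *Pecam1* were not analysed here, and 1 marker that enters a sum is not reported here singly. Some genes had their names matched by Entrez gene ID, and Python 3.11.15 with pandas 2.3.3 made the tables. Simulated counts with known changes were used to check the edgeR fit.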

Additional observations from a re-analysis of the deposited data

How the results depend on the processing

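The 8 collagen genes gave 456 results across comparisons and alternatives (normalization, tool, filter, samples, replicate block, libraries left out), and 444 kept their direction and their side of the threshold. The exceptions lay in 3 differences, and the *Col6a3* row, not counted here, had the 1 that the report gives. *Col8a1* for Fb-Epn against Fb-Skn turned from -0.08 to 0.0091 with library size only and to 0.059 with limma on log2(TPM + 1) or log2(TPM + 0.1), and it passed the threshold under none of them. *Col16a1* for Fb-Par against Fb-Skn, 0.0027 on the log2 scale, became -0.011 with upper-quartile factors and -0.00086 with all genes that had a count. Across single libraries left out it ran from -0.017 to 0.029, and it became -0.0076 without Fb-Par replicate 1, -0.00017 without Fb-Par replicate 3 and -0.017 without Fb-Skn replicate 3, and 0.15 and past the threshold with limma (adjusted p = 0.0055). *Col15a1* for Fb-Epn against Fb-Skn was -0.58 and -0.59 with limma, with adjusted p-values of 0.017 and 0.016, against -0.73. TPM shift the median of all tested genes as given in the report, and the cause of these changes was not tested beyond that. When single libraries were left out, the number of collagen genes past the adjusted p stayed at 7, 8 and 7 for Fb-Epn against Fb-Skn, Fb-Epn against Fb-Par and Fb-Par against Fb-Skn, and DE genes at 1, 3 and 3. When edgeR tested against a log2 fold change of 2, the DE genes among them were 1, 3 and 2. Changed thresholds were not among the 456 results. At an adjusted p under 0.05, 8 collagen genes instead of 7 passed for Fb-Epn against Fb-Skn, as did 7358 of the 13273 tested genes. With the replicate number as a block the counts were the same, 7, 8 and 7 and 1, 3 and 3, and no log2 fold change of a collagen gene moved by more than 0.027. Same-numbered libraries correlated in their deviations by r of -0.080 to 0.020 (9 pairs) and differently numbered ones by -0.045 to 0.089 (18 pairs). Over all tested genes DE genes numbered 1120, 860 and 1133, and 580, 421 and 576 with limma on log2(TPM + 1), 319, 344 and 373 with at least 10 counts in every library, and 633, 342 and 587 when tested against a log2 fold change of 2.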
